A study of Homo sapiens with 4 samples.

Results

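The genes described here were IDO1, TDO2, KYNU, CD274, PDCD1LG2, CD276, NT5E and VTCN1, which encode enzymes of tryptophan breakdown, inhibitory ligands of T cells and an enzyme that makes adenosine. They were chosen with their values in view, because IDO1 was near 0 reads in untreated cells and counted in every treated library, and the others were added as a contrast from among checkpoint ligands and immunosuppressive enzymes. They were 8 of the 60279 genes listed, and 7 of them were among the 14269 genes with a mean of at least 1 read per 1000000 gene reads (CPM), below called the compared genes. The values of these 8 genes are therefore a description of the libraries. RNA sequencing had been performed on SUM159 cells, an established line of triple negative breast cancer (TNBC), to compare untreated cells with cells given palbociclib, indisulam or the combination. Palbociclib inhibits the kinases CDK4 and CDK6, and indisulam is a sulfonamide that directs the splicing factor RBM39 to degradation. Each of the 4 conditions was 1 library without replicates, so the 95% intervals and the floors of 3 reads below cover counting error only. The library labels gave indisulam at 2 µM and palbociclib at 0.5 µM over 10 days, whereas the text on the series gave 3 µM and 2 µM over 16 h in technical duplicates. The first set is what the study used for its senescence signatures and the second for its splicing experiment, the labels were followed here, and pooling of duplicates was not stated. All 4 cultures, the untreated one included, were kept in DMEM/F12 medium with serum, insulin and hydrocortisone.

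The deposited counts summed to between 12555908 and 16712174 gene reads per library, at which 3 reads, the limit that a count of 0 allows, correspond to 0.18 to 0.239 CPM. The line was checked against its markers. VIM, a mesenchymal filament protein, had a mean of 3310 CPM, whereas PGR had at most 3 reads and ESR1 at most 16 in a library, and ERBB2 was at 126 CPM. CD44, KRT18 and EGFR had means of 791, 202 and 107 CPM. The epithelial markers KRT5, CDH1 and EPCAM were low, at 3.03, 1.19 and 0.86 CPM. Mitochondrially encoded genes took 4.9% to 7.33% of the gene reads. Of 16 markers of immune cells, 7 to 11 were at 0 in a library and 7 in every library, among them CD3E and NKG7, and the summed level of all 16 ranged from 19.2 to 24.7 CPM, of which most came from PTPRC and CD14. Because RNA was taken from whole cultures, fewer cells of a type and less RNA per cell cannot be told apart.

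Tryptophan is broken down along the kynurenine pathway. IDO1 and TDO2 catalyse the same first step, the opening of the indole ring, and KYNU (kynureninase) acts further down on kynurenine and its hydroxylated form. IDO1 is well known for its induction by interferon gamma, and loss of tryptophan and gain of kynurenine restrain T cells. CD274 (PD-L1) and PDCD1LG2 (PD-L2) are the ligands of the receptor PD-1, CD276 (B7-H3) and VTCN1 (B7-H4) are relatives of the same B7 family, and NT5E (CD73) makes adenosine from AMP at the cell surface.

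Promoter sequence was taken from the RefSeq table for the GRCh38.p14 build, which held 250 bases before and 50 after a start site for 6 of the 8 genes. IDO1 and PDCD1LG2, which were also called higher under indisulam, had no window and could not be searched. The 3 sequences below are shown because these genes were at least 2-fold different under indisulam, with CD274 and KYNU higher and TDO2 lower. Capitals mark matches, on either strand, to the letters TTCNNNGAA (GAS, the interferon gamma activated site), GAAANNGAA (the core of the interferon response element, ISRE) or TGANTCA (AP-1). Each run is written 5′ to 3′ on the plus strand and ends at the base before the start site. The start sites are those of the RefSeq table. For TDO2 this site lies well inside the annotated gene, which begins at 155854738.
CD274, chr9:5450292-5450541: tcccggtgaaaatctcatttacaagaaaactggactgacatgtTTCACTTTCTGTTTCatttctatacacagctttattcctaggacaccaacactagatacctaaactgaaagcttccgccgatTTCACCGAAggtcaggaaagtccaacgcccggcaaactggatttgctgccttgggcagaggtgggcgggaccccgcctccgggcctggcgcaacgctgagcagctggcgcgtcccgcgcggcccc
KYNU, chr2:142877414-142877663: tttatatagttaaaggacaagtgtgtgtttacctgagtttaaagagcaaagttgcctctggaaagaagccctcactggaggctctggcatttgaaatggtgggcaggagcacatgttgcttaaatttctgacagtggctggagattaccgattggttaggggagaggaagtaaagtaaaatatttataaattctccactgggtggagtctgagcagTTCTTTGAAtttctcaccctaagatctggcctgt
TDO2, chr4:155903446-155903695: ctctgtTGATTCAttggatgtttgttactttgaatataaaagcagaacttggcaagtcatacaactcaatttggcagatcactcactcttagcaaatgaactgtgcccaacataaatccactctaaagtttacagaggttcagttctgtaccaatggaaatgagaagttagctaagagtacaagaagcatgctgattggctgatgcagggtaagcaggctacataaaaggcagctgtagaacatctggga
The CD274 sequence held 1 GAS match 125 bases before the start and 2 overlapping ISRE matches 207 and 201 bases before it. The KYNU sequence held 1 GAS match 34 bases before the start, with another 5 bases after it, and the TDO2 sequence held 1 AP-1 match, at 244 bases before the start. Among all 35116 promoter windows, 7.66% held a GAS match, 8.11% an ISRE match and 7.71% an AP-1 match. Looser letters were also searched. GGANNNNCC (NF-kB) was found in 53.6% of windows and GCGTG, the core bound by the aryl hydrocarbon receptor, in 36.5%. The CD274, CD276, NT5E and VTCN1 windows each held NF-kB matches, the NT5E and VTCN1 windows held GCGTG, and the VTCN1 window held TGANTCA. A match is only a match of letters, and binding was not measured.

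First, the enzymes that open the tryptophan ring were examined. IDO1 (ENSG00000131203, chromosome 8, 39902275 to 39928790, plus strand, GRCh38) had 1 read in untreated cells, 47 under palbociclib, 111 under indisulam and 164 with both drugs. This corresponds to 0.0796 CPM (0.00202 to 0.444) in untreated cells and 3.7 (2.72 to 4.92), 6.64 (5.46 to 8.0) and 11.4 CPM (9.74 to 13.3) in the treated libraries. The intervals of the 4 libraries did not overlap, and the combination was the highest. Because the untreated library held 1 read, its ratios were wide, at 46.5-fold (7.95 to 1880) under palbociclib, 83.4-fold (14.7 to 3320) under indisulam and 143-fold (25.4 to 5700) under both drugs. Between treated libraries the ratios were narrower, and the combination exceeded palbociclib by 3.08-fold (2.22 to 4.36) and indisulam by 1.72-fold (1.34 to 2.21). With 1 added to each scaled count, 0.014% of the compared genes had a higher ratio of palbociclib to untreated than IDO1. For indisulam this was 0.042% and for the combination 0.105%. IDO1 was chosen for its rise from near 0 reads, and these shares rest on 1 untreated read, so they only describe it. An annotated antisense RNA shares exon bases with IDO1, and it had 0 reads in every library.

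**Figure D1:**
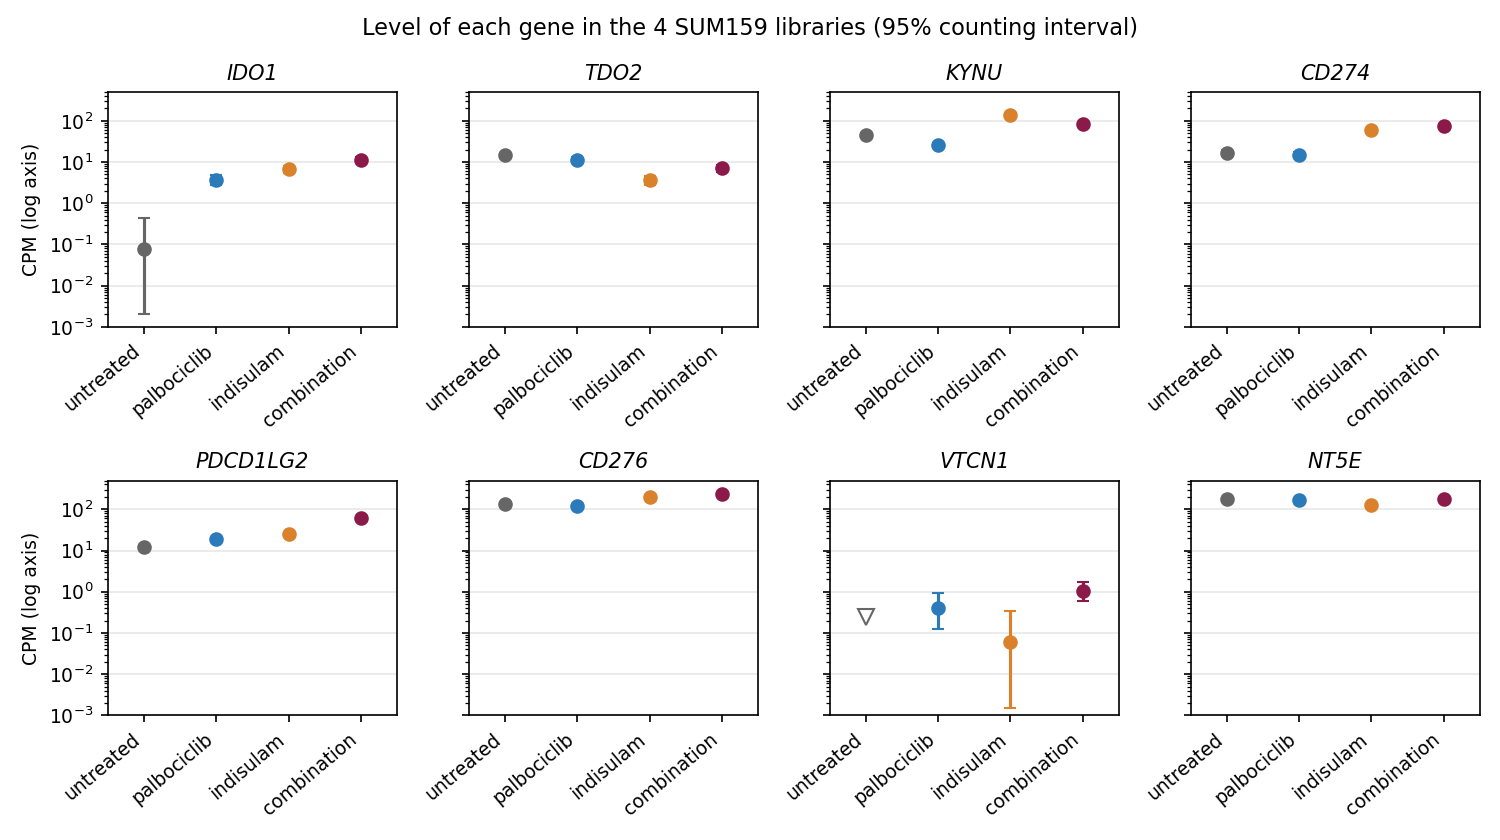
Level of the 8 genes in CPM (log axis) in the untreated, palbociclib, indisulam and combination libraries, with points for the level, bars for the 95% counting interval and an open triangle for the floor of 3 reads where the count was 0. IDO1 ran from 0.0796 CPM in untreated cells to 11.4 CPM in the combination, whereas NT5E stayed between 124 and 182 CPM.

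TDO2 (ENSG00000151790, chromosome 4, 155854738 to 155920406, plus strand), the other dioxygenase, was below its untreated level in each treated library. It had 181 reads in untreated cells (14.4 CPM), 141 under palbociclib (11.1 CPM), 60 under indisulam (3.59 CPM) and 101 with both drugs (7.03 CPM). The untreated library was the highest and the indisulam library the lowest. Log2 ratios were computed from counts scaled to equal library totals with 1 added to each, and a gene was called changed at 2-fold or more with an interval that excluded a ratio of 1. On this scale TDO2 differed from untreated by -1.98 (-2.40 to -1.57) with indisulam and by -1.03 (-1.38 to -0.68) in the combination, which were both called lower. The ratio with palbociclib was -0.37 (-0.69 to -0.06) and was not called. The TDO2 call in the combination sat at the threshold and was lost, at -1.0, when 5 was added in place of 1.

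The 2 dioxygenases were then compared within each library per length, as transcripts per 1000000 (TPM) over all annotated exons of GENCODE 44. In untreated cells IDO1 was at 0.0852 TPM and TDO2 at 10.2 TPM, a ratio of 0.00835 (0.00021 to 0.0471). With palbociclib IDO1 was at 3.9 and TDO2 at 7.75 TPM, a ratio of 0.503 (0.354 to 0.705). IDO1 was the more abundant transcript under indisulam, at a ratio of 2.8 (2.03 to 3.9), and in the combination, at 2.45 (1.9 to 3.18). The order of the pair was the same with the canonical transcript lengths, where the ratios were 0.00509, 0.306, 1.7 and 1.49.

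**Figure D2:**
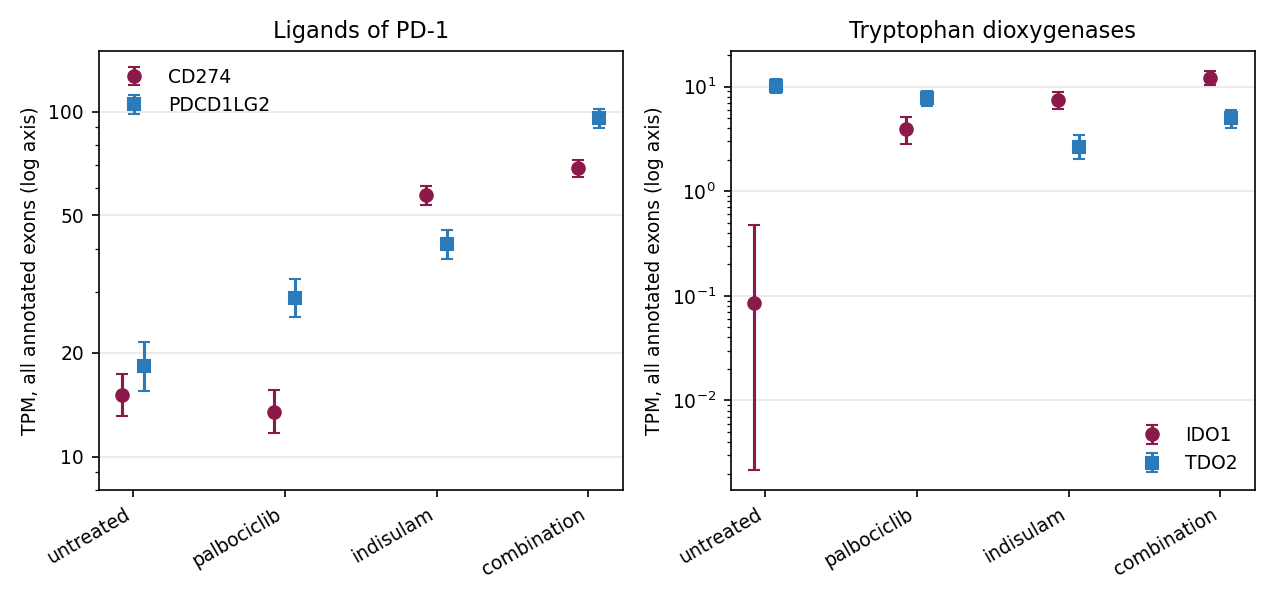
TPM over all annotated exons (log axes) of the PD-1 ligands CD274 and PDCD1LG2 and of the tryptophan dioxygenases IDO1 and TDO2 in the 4 libraries, with 95% counting intervals. IDO1 was below TDO2 in the untreated and palbociclib libraries and above it under indisulam and in the combination, and CD274 exceeded PDCD1LG2 only under indisulam, where PDCD1LG2 was at 0.72 of CD274.

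KYNU (ENSG00000115919, chromosome 2, 142877657 to 143055833, plus strand) was counted in every library, with 584 reads in untreated cells (46.5 CPM), 338 under palbociclib (26.6 CPM), 2378 under indisulam (142 CPM) and 1222 with both drugs (85.1 CPM). Unlike IDO1 it was lowest with palbociclib and highest with indisulam alone. It was called higher with indisulam against untreated, at a log2 ratio of 1.61 (1.48 to 1.74), and in the combination against palbociclib, at 1.67 (1.5 to 1.85). The combination against untreated, at 0.87 (0.73 to 1.01), was below 2-fold. The log2 ratio for palbociclib was similar without indisulam, at -0.80 (-1.0 to -0.61), and with it, at -0.74 (-0.84 to -0.64), and neither reached 2-fold. A pseudogene on the other strand that shares exon bases with KYNU had 0 reads in every library.

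Next, the remaining steps of the kynurenine pathway were examined. Of 13 genes listed for the pathway, 9 were compared, and without IDO1, TDO2 and KYNU these were 6. Among those 6, none was called higher in the combination against untreated and 3 were called lower, with 13.0% and 10.6% of all compared genes called higher and lower in that comparison. The 3 were the aminotransferases KYAT1 and KYAT3, which convert kynurenine to kynurenic acid, and AFMID, the formamidase that releases kynurenine, at log2 ratios of -2.18, -1.59 and -1.0, the last at the threshold. KYAT1 was also lower with palbociclib alone, at -1.62, with 476 reads in untreated cells, 156 under palbociclib, 322 under indisulam and 119 with both drugs. KYAT3 had 434, 335, 407 and 164 reads in the same order, and its lowest count was in the combination. QPRT, which acts on quinolinate at the end of the pathway, was higher with palbociclib, at 1.34, on 55 reads against 21. It had 25 reads under indisulam and 17 with both drugs, and was lower in the combination against palbociclib, at -1.81. KMO, the hydroxylase that competes with KYNU for kynurenine, was under the expression limit, with 0 reads in untreated cells, 21 under palbociclib, 5 under indisulam and 20 with both drugs. IDO2, HAAO and ACMSD had at most 3 reads. GOT2, with the highest mean of the list, and AADAT were not called in any comparison.

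Genes for tryptophan uptake, for its loading onto tRNA and for the aryl hydrocarbon receptor, which binds kynurenine among other ligands, were also listed, 12 of 13 being compared. In this list 4 genes were higher and none lower with indisulam against untreated, beside 8.44% and 6.71% of all compared genes. In the combination 5 were higher and none lower, beside 13.0% and 10.6%. SLC7A5 and SLC3A2 form a transporter that carries tryptophan into the cell. SLC7A5 had 1557 reads in untreated cells, 749 under palbociclib, 2136 under indisulam and 3729 with both drugs, at log2 ratios to untreated of -1.07, 0.04 and 1.07. SLC3A2 had 1521, 1055, 4205 and 8843 reads, at -0.54, 1.05 and 2.35. CYP1A1, an enzyme gene switched on by the receptor, had 10, 14, 118 and 192 reads, at 3.04 with indisulam and 3.95 in the combination. CYP1B1, another such gene, was at 1.65 and 1.86, and AHR itself at 1.11 and 1.15. AHRR and TIPARP of the same list were not called in any comparison. AHRR was at 0.61 with indisulam and -0.11 in the combination, and TIPARP at 0.97 and 0.62. ARNT was not called either, at -0.19 and -0.92. The glutamine carrier SLC1A5 was lower with palbociclib, at -1.03. NQO1 and WARS1, the tryptophanyl tRNA synthetase, were not called in any comparison, and IL4I1, an amino acid oxidase that accepts tryptophan, rested on 2, 7, 14 and 34 reads, 14.9-fold (3.81 to 128) from untreated to combination.

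Among the ligands, CD274 (ENSG00000120217, chromosome 9, 5450503 to 5470566, plus strand) had 209 reads in untreated cells (16.6 CPM), 192 under palbociclib (15.1 CPM), 1006 under indisulam (60.2 CPM) and 1085 with both drugs (75.6 CPM). The libraries fell into a low pair without indisulam and a high pair with it. CD274 was called higher with indisulam, at a log2 ratio of 1.85 (1.64 to 2.06), and in the combination, where it was 2.18 (1.96 to 2.39) relative to untreated cells and 2.31 (2.09 to 2.54) relative to palbociclib. Adding palbociclib to indisulam gave 0.33 (0.20 to 0.45), under 2-fold. The ratio for palbociclib alone, -0.14 (-0.42 to 0.14), had an interval that included 0.

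PDCD1LG2 (ENSG00000197646, chromosome 9, 5510531 to 5571282, plus strand) lies next to CD274 and had 150 reads in untreated cells (11.9 CPM), 243 under palbociclib (19.1 CPM), 429 under indisulam (25.7 CPM) and 896 with both drugs (62.4 CPM). In contrast to CD274, each library differed from the others beyond counting error, and PDCD1LG2 was the only one of the 7 compared genes called higher in the combination against indisulam, at 1.28 (1.11 to 1.44), beside 5.09% of all compared genes higher and 3.19% lower. Relative to untreated cells its log2 ratio was 0.68 (0.39 to 0.97) under palbociclib, 1.10 (0.83 to 1.37) under indisulam and 2.38 (2.13 to 2.63) under both drugs. The balance between the PD-1 ligands therefore differed between libraries. Per length, PDCD1LG2 was at 18.3 TPM and CD274 at 15.1 TPM in untreated cells, a ratio of 1.21 (0.976 to 1.5) that counting error did not separate from 1. Under palbociclib the ratio was 2.14 (1.76 to 2.6), under indisulam 0.72 (0.642 to 0.807) and under both 1.4 (1.28 to 1.53). With canonical transcript lengths it was 1.07, 1.89, 0.638 and 1.24. Of the 11 protein-coding genes within 500 kb of CD274, 6 were compared. Besides PDCD1LG2 only JAK2 was called higher with indisulam against untreated, at 1.36, while PLGRKT and ERMP1 were lower, at -1.01 and -1.40. Over all compared genes 8.44% were higher and 6.71% lower in that comparison.

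CD276 (ENSG00000103855, chromosome 15, 73683966 to 73714514, plus strand) was by TPM among the 2 most abundant of the 8 genes in each library and had 1702 reads in untreated cells (136 CPM), 1537 under palbociclib (121 CPM), 3402 under indisulam (204 CPM) and 3369 with both drugs (235 CPM). As with CD274, both libraries with indisulam were above both without it. None of its log2 ratios reached 2-fold. They were 0.59 (0.50 to 0.67) with indisulam and 0.79 (0.71 to 0.88) for both drugs relative to untreated cells, and 0.95 (0.87 to 1.04) for both drugs relative to palbociclib.

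VTCN1 (ENSG00000134258, chromosome 1, 117143587 to 117210960, minus strand) had 0 reads in the untreated library, which allows up to 0.239 CPM, and 5 under palbociclib, 1 under indisulam and 15 with both drugs. Its mean of 0.375 CPM was under the limit for comparison. The combination, at 1.04 CPM, exceeded untreated by at least 3.14-fold (exact lower 95% limit of 15 reads against 0) and was 17.5-fold (2.69 to 735) above indisulam, on 15 reads against 1. For palbociclib against untreated, with 5 reads against 0, the lower limit was 0.907, so that counting error did not separate them, and the combination was 2.65-fold (0.916 to 9.33) above palbociclib.

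**Figure D3:**
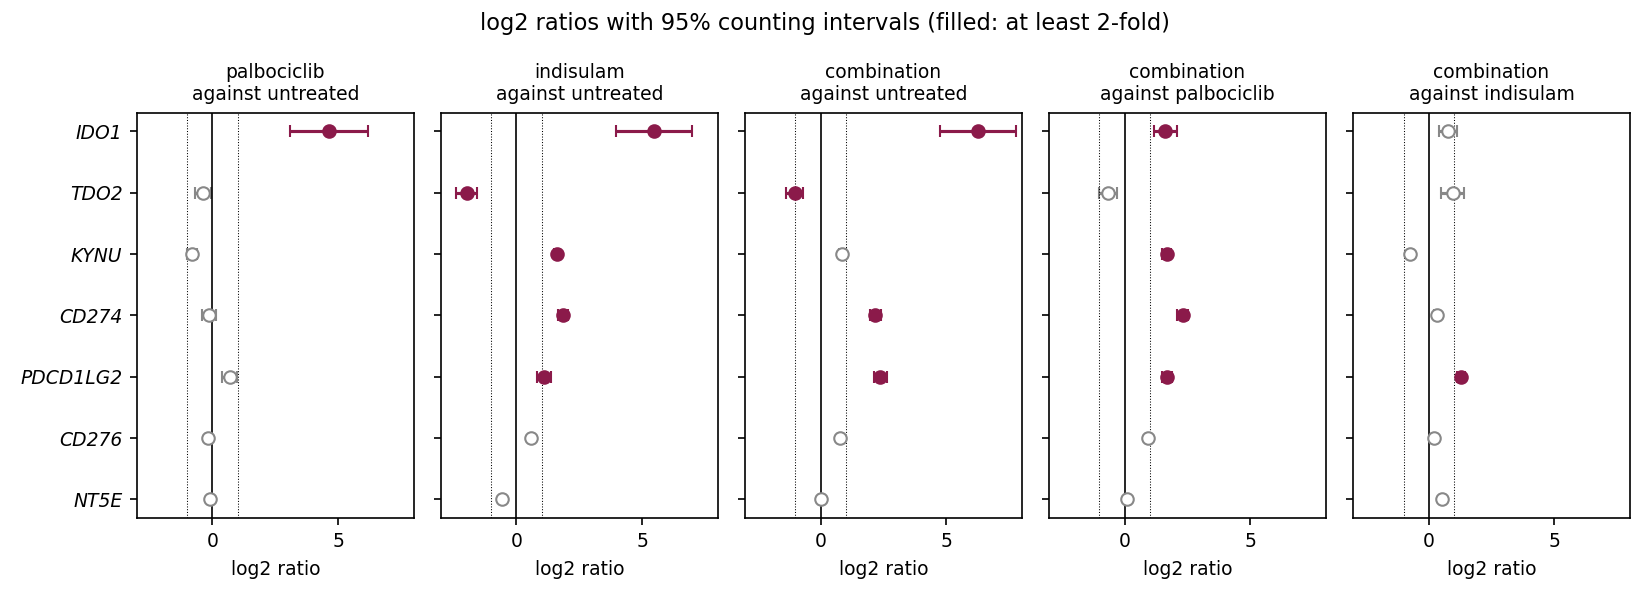
Log2 ratios of the 7 compared genes in 5 comparisons, with 95% counting intervals. Filled points are called at 2-fold or more, and dotted lines mark 2-fold. IDO1 is filled in the first 4 panels, TDO2 is filled on the lower side for indisulam and the combination against untreated, and CD276 and NT5E are open in every panel.

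Other ligands of the same kind were then described from a list of 24 genes of the B7 family and other inhibitory pairs, of which 18 were compared and 15 of these were not among the 8 genes above. With palbociclib against untreated, 3 of the 15 were higher and 1 lower, beside 5.96% and 4.95% of all compared genes. With indisulam 2 were higher and none lower, beside 8.44% and 6.71%, and in the combination 4 were higher and 1 lower, beside 13.0% and 10.6%. LGALS9, the galectin that binds TIM-3, had 21 reads in untreated cells, 172 under palbociclib, 69 under indisulam and 141 with both drugs, at log2 ratios to untreated of 2.97, 1.27 and 2.50. CEACAM1, an adhesion protein that inhibits lymphocytes, had 42, 108, 65 and 143 reads and was called higher with palbociclib, at 1.33, and in the combination, at 1.55. FGL1, a ligand of LAG-3, rested on 7, 40, 21 and 33 reads, at 2.36 with palbociclib and 1.91 in the combination. These 3 genes were highest relative to untreated in libraries that held palbociclib. PVR, the ligand of TIGIT, was instead called in the combination against untreated and against palbociclib, at 1.08 and 1.51, and NECTIN3 with indisulam, at 1.00. VSIR, which encodes VISTA, was lower with palbociclib, at -1.06, and in the combination, at -1.19. The abundant genes HLA-E and CD47 were not called in any comparison, and HLA-G was lower in the combination against palbociclib, at -1.58. The costimulatory ligand CD80 had 0, 1, 4 and 8 reads, and CD86 at most 2.

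NT5E (ENSG00000135318, chromosome 6, 85449584 to 85495791, plus strand) was the member that differed least from untreated in the combination. It had 2286 reads in untreated cells (182 CPM), 2180 under palbociclib (172 CPM), 2068 under indisulam (124 CPM) and 2609 with both drugs (182 CPM). The indisulam library stood below the other 3. The log2 ratio with indisulam was -0.56 (-0.64 to -0.47), that of the combination to untreated was 0.00 (-0.08 to 0.08), and that of the combination to indisulam was 0.55 (0.47 to 0.64), so none reached 2-fold.

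Other genes of the adenosine pathway were called where NT5E was not. Of 17 listed genes 16 were found in the tables and 10 compared, and in the combination against untreated 4 were higher and 3 lower, beside 13.0% and 10.6% of all compared genes. ENTPD1 (CD39), which makes the AMP that NT5E uses, had 3 reads in untreated cells, 7 under palbociclib, 35 under indisulam and 102 with both drugs, a ratio to untreated of 8.77-fold (2.76 to 44.5) with indisulam and 29.7-fold (9.89 to 147) in the combination. ADA, which removes adenosine by deamination, had 1363, 792, 1007 and 362 reads and was lower in the combination against untreated, at -2.10, against palbociclib, at -1.31, and against indisulam, at -1.25. The adenosine carrier SLC29A2 had 89, 52, 73 and 15 reads and was at -2.68 against untreated. ENPP1, which also yields AMP, was at -1.30. The receptors ADORA1 and ADORA2B and the channel PANX1 were at 1.00, 1.00 and 1.02 in the combination, each close to the threshold.

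**Figure D4:**
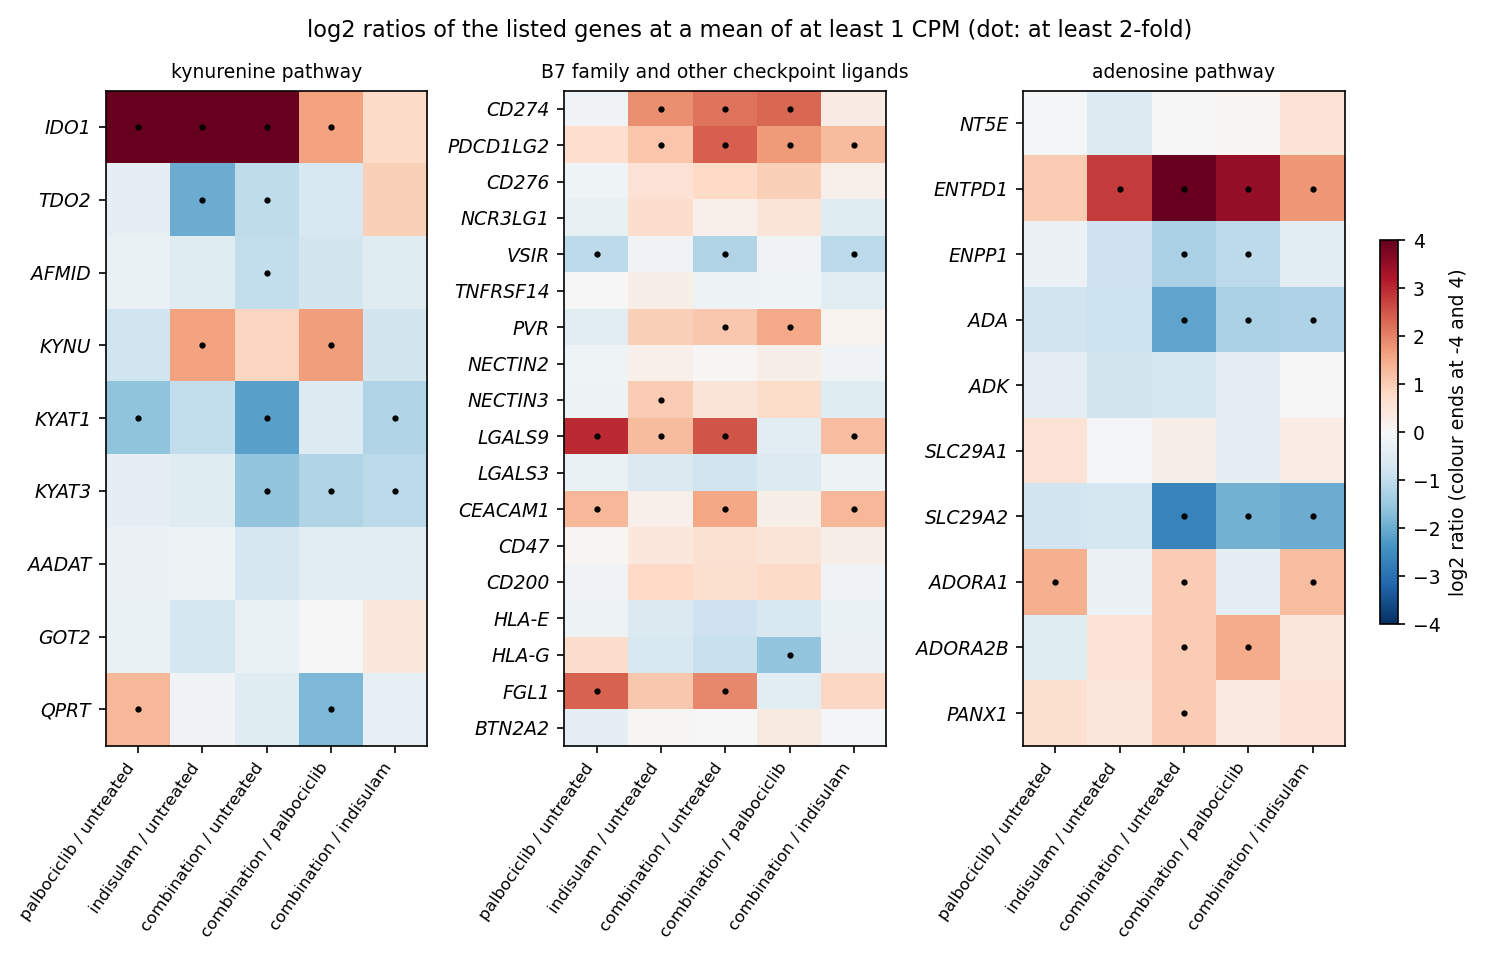
Log2 ratios (colour scale ending at -4 and 4) of the compared genes of the kynurenine pathway, of B7 and other checkpoint ligands and of the adenosine pathway in the 5 comparisons, with a dot where a gene was called at 2-fold or more. In the first panel IDO1 is dark red in the comparisons with untreated cells, and KYAT1 and KYAT3 are blue in the combination, at -2.18 and -1.59 against untreated.

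Counts of calls over the 7 compared genes were set beside those of all compared genes. With palbociclib against untreated, 1 of 7, IDO1, was called higher and none lower, where 5.96% of all compared genes were higher and 4.95% lower. With indisulam 4 of 7 were higher (IDO1, KYNU, CD274 and PDCD1LG2) and 1, TDO2, was lower, where all compared genes gave 8.44% and 6.71%. In the combination against untreated 3 of 7 were higher (IDO1, CD274 and PDCD1LG2) and TDO2 was lower, beside 13.0% and 10.6%. In the combination against palbociclib 4 of 7 were higher and none lower, where 9.62% of all compared genes were higher and 7.40% lower. The median log2 ratio of the 7 genes was -0.14 under palbociclib, 1.10 under indisulam and 0.87 with both drugs, beside -0.02, 0.06 and 0.05 over all compared genes. Since the genes were chosen from these libraries, these shares and medians only describe them.

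The layout of the study gave the effect of each drug without and with the other, from separate pairs of libraries. The difference between the log2 ratio of the combination and the sum of the single-drug ratios was taken as the departure from additivity. Its robust standard deviation (scaled median absolute deviation) over all genes of similar level was 0.52 at 5 to 20 CPM, 0.37 at 20 to 100 CPM and 0.40 above 100 CPM, a spread that includes noise between libraries. KYNU departed by 0.06 (-0.16 to 0.28), CD276 by 0.37 (0.25 to 0.49), CD274 by 0.46 (0.16 to 0.77), PDCD1LG2 by 0.60 (0.27 to 0.94) and NT5E by 0.64 (0.52 to 0.76). Only PDCD1LG2, NT5E, TDO2, CD274 and IDO1 exceeded 1 such standard deviation. TDO2 departed by 1.33 (0.78 to 1.88), its indisulam ratio being -1.98 without palbociclib and -0.65 (-1.02 to -0.29) with it. IDO1 departed by -3.87 (-5.46 to -2.28), with palbociclib at 4.65 alone and at 0.78 (0.43 to 1.12) on top of indisulam, a value that rests on 1 untreated read and was -2.47 when 5 was added in place of 1.

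**Figure D5:**
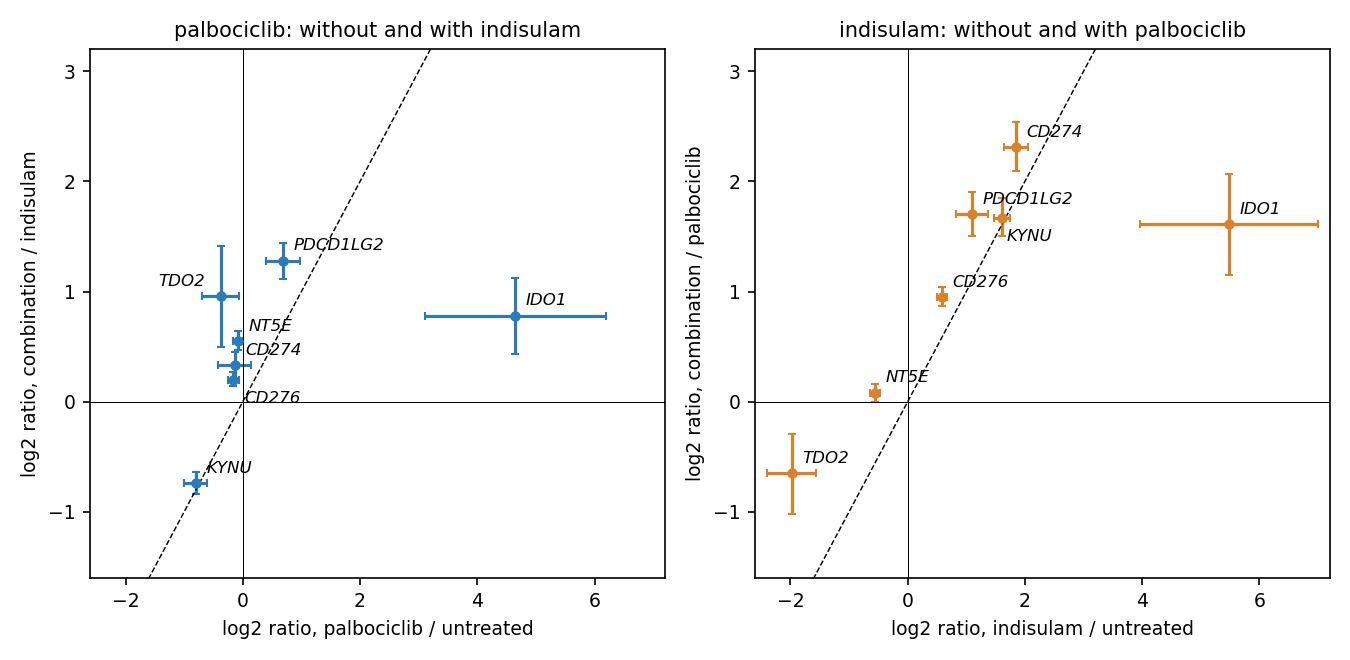
Log2 ratio of palbociclib (left) and indisulam (right) for the 7 compared genes without the other drug (horizontal axis) and with it (vertical axis), with 95% counting intervals. The dashed line marks equal ratios. KYNU lies on it in both panels, TDO2 lies above it in both, and IDO1 lies far below it, at 4.65 and 0.78 for palbociclib.

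Levels between the 8 genes were compared per length. In untreated and in palbociclib-treated cells the order by TPM was NT5E, CD276, PDCD1LG2, CD274, TDO2, KYNU, IDO1 and VTCN1. NT5E was at 150 TPM and CD276 at 92.2 TPM in untreated cells, and TDO2 and KYNU, at 10.2 and 9.95 TPM, were neighbours that did not differ beyond counting error on this scale, although canonical transcript lengths put them at 18.0 and 6.53 TPM. Under indisulam CD276 was first, at 145 TPM, before NT5E at 107 TPM, and KYNU, at 31.9 TPM, and IDO1, at 7.44 TPM, stood above TDO2, at 2.66 TPM. In the combination CD276 was first again, and NT5E at 149 TPM was followed by PDCD1LG2 at 95.5 TPM, CD274 at 68.4 TPM, KYNU at 18.2 TPM and IDO1 at 12.2 TPM. The ranks below NT5E and CD276 depended on the transcript length used. With canonical transcripts IDO1 stood above KYNU with palbociclib and in the combination, and TDO2 stood above CD274 in untreated and palbociclib-treated cells. In untreated cells TDO2 then also stood above PDCD1LG2, at 18.0 against 10.4 TPM.

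Finally, the genes whose pattern was most like that of IDO1 were taken as the 5 with the smallest root mean square difference in the 3 log2 ratios to untreated. These were IGFBP5 (0.449), which encodes a binding protein of insulin-like growth factors, ARNT2 (0.665), a partner of bHLH-PAS factors, the long non-coding RNA DIRC3 (0.674), VNN1 (0.686), a pantetheinase, and the matrix proteoglycan LUM (0.89). IGFBP5 had 15 reads in untreated cells, 308 under palbociclib, 607 under indisulam and 1167 with both drugs, so that it followed the order of IDO1 at a higher count. ARNT2 had 9, 115, 722 and 868 reads and LUM had 6, 65, 449 and 390. VNN1 had 3, 48, 168 and 250 reads, and DIRC3 0, 17, 76 and 152. The likeness was taken over 3 ratios that share the untreated library. LUM was also 1 of 8 listed markers of endothelial cells and fibroblasts, which summed to 2340 CPM in untreated cells, 3720 under palbociclib, 4020 under indisulam and 3240 with both drugs, mainly from COL1A1 and DCN. The endothelial markers among them differed in their order, with 191, 519, 293 and 293 reads for PECAM1, 6, 4, 16 and 17 for VWF and 5, 23, 0 and 0 for CDH5. The fibroblast markers differed as well. DCN, like LUM, was above its untreated level in each treated library, with 2927, 6994, 28095 and 26440 reads. COL1A1 had 22532, 35619, 35904 and 17892 reads. PDGFRB was below its untreated level in each treated library, with 2510, 1780, 1344 and 563 reads. COL1A2 was highest under palbociclib, with 1173, 2252, 1158 and 869 reads. The part of these markers in the values of IDO1 was not tested.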

How the data were processed

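Per the labels, total RNA was extracted with Trizol and made into stranded mRNA libraries. The authors deposited counts of reads per Ensembl gene, not normalized. The submitters' processing notes name TopHat2 2.1, HTSeq and GRCh38. The annotation release and the strand setting of the counting are not given in the sources used here. Tallies of reads in no gene, in several genes or at several places (9.61% to 10.1% of a library) were kept out of the totals.

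Counts were scaled to the total gene count of each library (Python 3.11.15, pandas 2.3.3, scipy 1.17.1). Log2 ratios used a pseudocount of 1 scaled count and a delta-method 95% interval from counting error. With 1 library per condition no test across samples was made. The genes compared had 1 CPM or more on average, and a gene was called at 2-fold or more with an interval excluding 1. Ratios that rest on 1 to 3 reads were given as ratios of counts with an exact (Clopper-Pearson) interval, and those against 0 reads as its lower limit. TPM used exon lengths of GENCODE 44. Alternatives used TMM and upper-quartile factors (edgeR 4.0.16) and size factors (DESeq2 1.42.0) in R 4.3.3. The calling steps were tested on simulated data. Members and gene lists were chosen with earlier results of these data known. All 8 members were named, and of each list the genes called in a comparison and the 3 with the highest means could be. Some uncalled genes were named beside them. Of the 160 listed symbols, 1 was not found.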

Additional observations from a re-analysis of the deposited data

Results flagged for a closer look

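In 2 genes the ratio for palbociclib had opposite signs without and with indisulam, and the difference was not tested across replicates. The log2 ratio of TDO2 was -0.37 when palbociclib was given alone, relative to untreated cells, and 0.96 when it was added to indisulam. That of CD276 was -0.16 and 0.20. By counting error alone, the difference was 1.33 (0.78 to 1.88) for TDO2 and 0.37 (0.25 to 0.49) for CD276. For CD276 both were under 0.28, an upper limit, at 100 CPM or more, to the noise (SD) of 1 ratio that follows from the spread of departures from additivity, and for TDO2 the limit was 0.37.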

How the results depend on the processing

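With a mean of at least 5 CPM, the genes called were 439 higher and 395 lower for palbociclib against untreated, 669 and 543 for indisulam, 1107 and 997 for the combination, 761 and 635 for the combination against palbociclib, and 293 and 251 against indisulam. At a 1.5-fold threshold the same counts were 1818 and 1755, 2467 and 2043, 3306 and 2779, 2638 and 2075, and 1732 and 1464. With no filter 1468 genes were higher in the combination against indisulam. These counts follow from which genes and folds were admitted. Among the 8 genes, 1.5-fold gave 2 higher and 1 lower for palbociclib against untreated, and 5 higher for indisulam against untreated. For the combination it gave 5 higher against untreated, 5 higher and 1 lower against palbociclib, and 3 higher and 1 lower against indisulam. A pseudocount of 5 left 0 lower in the combination against untreated, since TDO2 came to -1.0. Without the filter VTCN1 made 4 higher in the combination against untreated and 2 higher in the combination against indisulam. Of the other values, 171 of 175 log2 ratios and all 35 departures from additivity computed under other scalings or a pseudocount of 5 moved by less than their counting error, and none changed sign while called. With TMM factors the median ratio over all genes shifted by at most -0.10, and CD276 came to 0.70 and 0.86 and NT5E to -0.10 and -0.02 in the combination against untreated and against palbociclib. With canonical transcript lengths, tried after the data were seen, 22 of 29 TPM values left their counting intervals. Leaving out a replicate could not be done with 1 library per condition. No paired analysis was possible because each condition had 1 library and no test was made. At these depths VTCN1 in untreated cells is bounded only at 0.239 CPM.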

Other observations

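Further enzymes that restrain immune cells were listed, 6 of 9 being compared. With indisulam against untreated 3 were higher and 2 lower, as in the combination, and with palbociclib 3 were lower and none higher. Over all compared genes 8.44% were higher and 6.71% lower with indisulam, 13.0% and 10.6% in the combination, and 5.96% and 4.95% with palbociclib. PTGES, which makes prostaglandin E2, had 207 reads in untreated cells, 59 under palbociclib, 1381 under indisulam and 778 with both drugs, at log2 ratios to untreated of -1.81, 2.32 and 1.71. PTGS2 (COX-2), the step before it, had 8, 18, 53 and 81 reads, at 2.19 with indisulam and 3.01 in the combination. SPHK1, a sphingosine kinase, was at 1.38 and 2.26. ARG2, an arginase, had 355, 53, 186 and 102 reads and was lower in all 3 treated libraries, at -2.74, -1.34 and -1.98, and HMOX1, heme oxygenase 1, was lower in all 3 as well, at -1.46, -2.30 and -2.15. ARG1 had no reads.

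Of 20 genes of the interferon gamma axis, 15 were compared. IFNG, IFNB1 and IFNL1 had 0 reads in every library. With indisulam 5 were higher and none lower, beside 8.44% and 6.71% of all compared genes, and in the combination 4 were higher and 1 lower, beside 13.0% and 10.6%. CXCL11, a chemokine induced by interferons, had 4 reads in untreated cells, 16 under palbociclib, 165 under indisulam and 200 with both drugs, at 1.77, 4.67 and 5.17. IRF1, a transcription factor of the pathway, had 251, 494, 711 and 729 reads, at 0.96, 1.09 and 1.34. SOCS3, a feedback inhibitor, was lower in the combination, at -1.90. CXCL9 had at most 1 read.

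Of 12 genes that control the PD-L1 protein, 11 were compared. CMTM6, which keeps PD-L1 on the membrane, was the only call, at 1.10 in the combination against untreated. In that comparison 13.0% of all compared genes were higher and 10.6% lower. Another list held 8 genes of the tumour necrosis factor family, namely ligands that costimulate or kill lymphocytes and the receptor CD40. Of these 6 were compared, with 2 higher and 1 lower in the combination against untreated, where all compared genes gave 13.0% and 10.6%. CD70 had 12, 10, 38 and 69 reads, at 1.19 with indisulam and 2.25 in the combination, TNFSF4 was at 1.26 in the combination, and TNFSF10 (TRAIL) at -1.83. Of 11 checkpoint receptors only SIRPA was compared, at 1.13 in the combination, and PDCD1, the receptor of both PD-1 ligands, had 0, 0, 1 and 2 reads.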
